A study of Mus musculus with 8 samples.

Results

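Creatine kinases and the enzymes that balance ATP, ADP and AMP were followed in quadriceps muscle through 9 genes: Ckm, Ckmt2, Ckb, Gamt, Gatm, Slc6a8, Ak1, Ampd1 and Ampd3. They were chosen by name for their place in this pathway, and all 9 were found among the 43239 named genes of the deposited tables. Each had its own entry, was above 0 in all 8 libraries and reached the mean of 1 FPKM (fragments per kilobase of transcript, scaled to the number of mapped fragments) required for testing, as did 11878 genes in all. The libraries came from 4 female mice labelled Mss51-/- (KO) and 4 labelled wild type (WT), all aged 6 months, with 1 RNA library from the quadriceps of each mouse. How the knockout allele was made is not given in the sources used here, and the labels name no treatment. By the title of the series, the labels were compared to learn how muscle metabolism differs when Mss51, a gene of skeletal muscle, is deleted.

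Muscle stores quickly usable energy as phosphocreatine. Creatine kinase moves a phosphate between creatine and ATP: the muscle-type cytosolic enzyme works where ATP is spent, such as at the myofibrils, and the mitochondrial enzyme works between the mitochondrial membranes, where newly made ATP is handed to creatine. Creatine is made by an amidinotransferase and a methyltransferase, largely outside muscle, and enters the fibre through a transporter. Adenylate kinase rebuilds ATP from ADP and leaves AMP, which AMP deaminase converts to IMP, a step of the purine nucleotide cycle. Oxidative fibres are known to be rich in the mitochondrial creatine kinase, and fast fibres in Ckm and Ampd1.

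Mss51 itself went against the labels. Its FPKM was 339.6, 201, 216 and 207 in replicates 1 to 4 labelled KO, against 22.9, 37.0, 27.5 and 24.8 in replicates 1 to 4 labelled WT, so every direction given here is that of the labels (log2 fold change 3.07, limma adjusted p = 0.000643). Replicate 1 labelled KO stood apart in the number of calls: 6 genes differed between the labels with all 8 libraries (limma adjusted p under 0.05) and 125 without it. Without any other single library, 4 to 6 genes were called higher and 0 to 3 lower. On the axis of largest variation over all genes tested it did not stand apart from its label. It lay at -21.1 there, beside replicate 3 labelled KO at -22.9, with replicates 2 and 4 at 9.61 and 38.6. Each result that rests on replicate 1 labelled KO is given with and without it. The summed FPKM of 10 slow or oxidative fibre markers (Myh7 among them, joined with Myh6 in the files) was 2969 in that library and 6197 to 6761 in the other 3 labelled KO, against 2570 to 3190 in those labelled WT. Most of this sum is 1 gene, Mb, at 3645 to 4704 FPKM in those 3 libraries. Fibre markers were abundant in the tissue labelled quadriceps, with Tnnc2, fast troponin C, at 12674 to 17949 FPKM and desmin, Des, at 809 to 976 FPKM. Some fibre genes known to be abundant were listed at 0, namely Myh4 in all 8 libraries, Atp2a1 in 7 and Tnnt3 in 4. A listed 0 can be a failed estimate, and none of the 9 genes was listed so.

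The 9 genes spanned more than 3 orders of magnitude, and FPKM is per length, so their levels can be set side by side. The mean over all 8 libraries was 10961 FPKM for Ckm, 1200.2 for Ckmt2, 793 for Ak1, 543 for Ampd1, 55.1 for Slc6a8, 19.6 for Gamt, 9.45 for Ckb, 5.01 for Ampd3 and 3.85 for Gatm. This order held in all 8 libraries for each pair of neighbours except Ckmt2 and Ak1, where Ckmt2 was above Ak1 in 6 of 8. Among the libraries labelled WT, Ckmt2 (697 to 923 FPKM) and Ak1 (708 to 833 FPKM) overlapped. Ampd3 (3.64 to 6.54 FPKM) and Gatm (2.78 to 5.36 FPKM) overlapped too, although Ampd3 was the higher in each library.

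**Figure D1:**
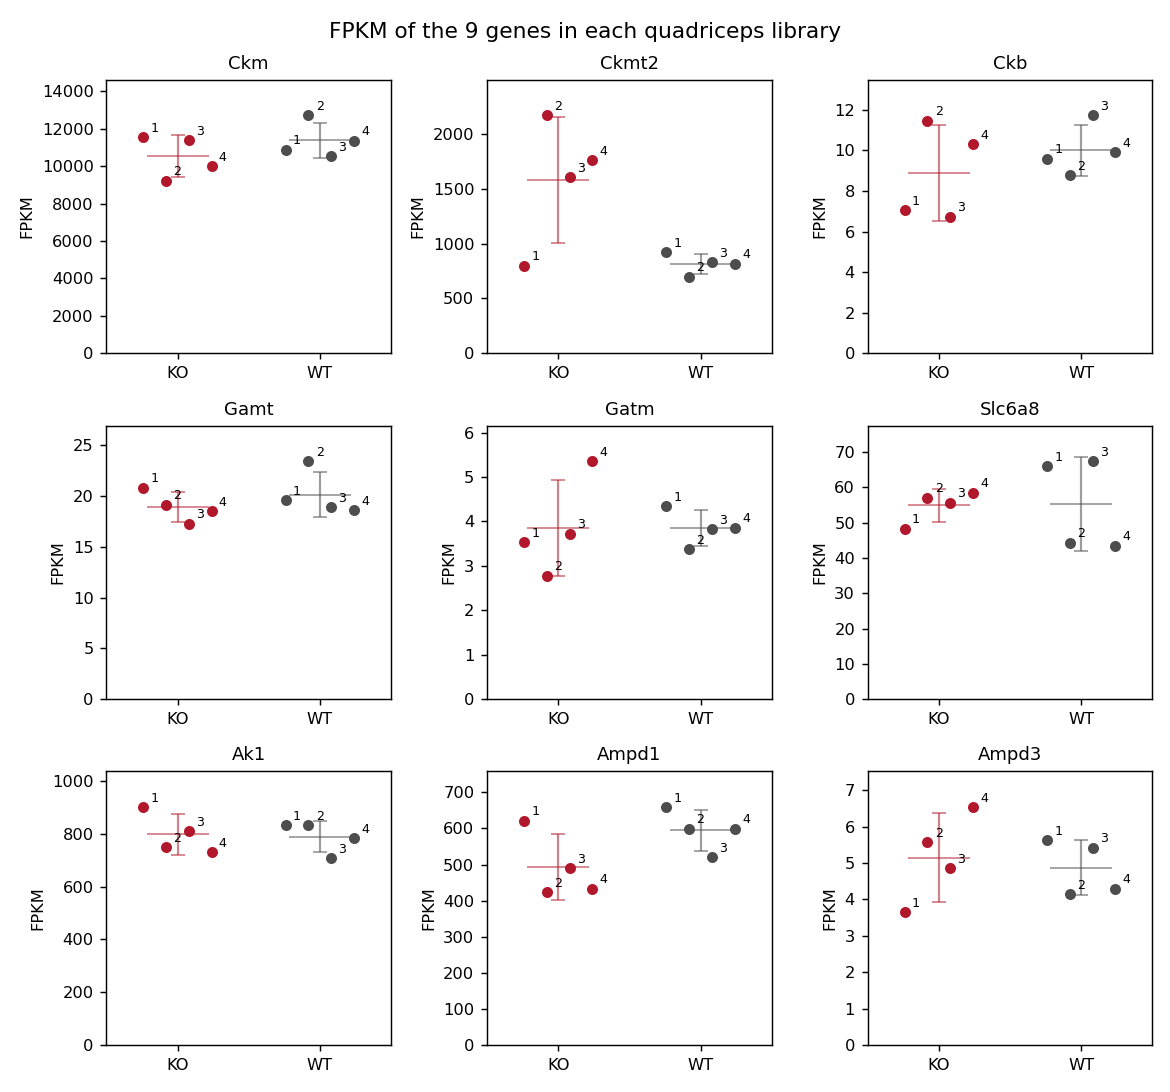
FPKM of each of the 9 genes (y axis, linear, from 0) in the libraries labelled KO (red) and WT (grey); numbers beside the points are replicate numbers, the horizontal line is the group mean and the bar its SD (n = 4). Ckmt2 stands at 1603 to 2169 FPKM in 3 of the 4 libraries labelled KO, against 697 to 923 FPKM in those labelled WT, with the replicate 1 labelled KO at 800.4.

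Ckmt2 and Ckm, the mitochondrial and the cytosolic creatine kinase of muscle, are shown side by side. The first had the largest difference of the 9 genes and the other is the most abundant of them. The 300 bases around their RefSeq starts (GRCm38.p6, 250 before and 50 after, 5′ to 3′ on the strand of the gene) are printed with every E-box in capitals. An E-box, CANNTG on either strand, is the letter pattern that MyoD-family and other factors of its class are known to bind. Ckmt2 lies on the minus strand at chr13:91876836-91877135 and Ckm on the plus strand at chr7:19410844-19411143.
Ckmt2: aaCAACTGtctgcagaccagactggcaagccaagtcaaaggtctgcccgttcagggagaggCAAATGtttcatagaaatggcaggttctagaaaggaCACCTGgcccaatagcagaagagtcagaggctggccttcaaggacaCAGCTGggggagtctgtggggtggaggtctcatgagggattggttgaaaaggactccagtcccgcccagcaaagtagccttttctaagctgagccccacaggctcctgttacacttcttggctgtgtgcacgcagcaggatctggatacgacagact
Ckm: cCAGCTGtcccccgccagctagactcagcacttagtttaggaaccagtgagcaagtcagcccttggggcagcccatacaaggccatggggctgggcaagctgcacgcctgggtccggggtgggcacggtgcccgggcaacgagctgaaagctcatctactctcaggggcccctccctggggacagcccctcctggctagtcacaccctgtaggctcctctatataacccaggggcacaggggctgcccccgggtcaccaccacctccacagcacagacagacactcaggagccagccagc
The Ckmt2 window held 4 E-boxes and the Ckm window 1. At least 1 E-box is present in 72.3% of the 32851 RefSeq windows of this length, so its presence alone sets neither gene apart. Neither window held AAGGTCA, a core letter pattern of nuclear receptor sites that 4.72% of windows hold on either strand. Nor did either hold the MEF2-like core, CTA, any 4 bases and then TAG (3.69% of windows), or TATAAA (13.6%). Promoter windows were matched for 7 of the 9 genes.

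Ckmt2, the mitochondrial creatine kinase of muscle (ENSMUSG00000021622, chromosome 13, 91853387 to 91876885 of mm10), had the largest log2 fold change of the 9 genes without passing the test on all 8 libraries. Its FPKM was 800.4, 2169, 1603 and 1760.35 in replicates 1 to 4 labelled KO, against 923, 697, 829 and 819 in replicates 1 to 4 labelled WT. Replicates 2, 3 and 4 labelled KO lay above every library labelled WT, and replicate 1 labelled KO lay inside their range. The means were 1583 ± 574 FPKM in the libraries labelled KO and 817 ± 92.6 FPKM in those labelled WT (SD, n = 4 each). On the log2(FPKM + 0.5) scale the fold change, KO minus WT, was 0.87 (SE 0.27, 95% interval 0.25 to 1.49; limma adjusted p = 0.353 over the 11878 genes, exact permutation p = 0.114). Without replicate 1 labelled KO, Ckmt2 passed, with a log2 fold change of 1.17 (95% interval 0.86 to 1.48, limma adjusted p = 0.0108) and a mean of 1844 ± 292 FPKM (SD, n = 3), 2.26 times the mean of the libraries labelled WT. Leaving out any of the other 7 libraries gave 0.69 to 0.93 (adjusted p = 0.417 to 0.665). Since the library left out is the one in which Ckmt2 itself is low, that call is no independent support.

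Ckm, the cytosolic enzyme of muscle (ENSMUSG00000030399, chromosome 7, 19404776 to 19422841), was the most abundant of the 9 and differed by less than its spread. It stood at 11554, 9230.4, 11390.3 and 10010.3 FPKM in replicates 1 to 4 labelled KO, against 10875, 12716, 10545 and 11367 FPKM in replicates 1 to 4 labelled WT. The groups overlapped, with replicates 2 and 4 labelled KO below every library labelled WT. For Ckm the log2 fold change was -0.11 (SE 0.12, 95% interval -0.38 to 0.16, limma adjusted p = 0.793). An antisense gene, A930016O22Rik, shares 451 of the 2913 exon bases of Ckm and stood at 502 to 659 FPKM; with no strand setting given, reads of this overlap cannot be told apart.

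Ckb, the cytosolic form known from brain and many other tissues (ENSMUSG00000001270, chromosome 12, 111669361 to 111672338), was low in this muscle. Its FPKM was 7.06, 11.5, 6.73 and 10.3 in replicates 1 to 4 labelled KO, against 9.60, 8.78, 11.7 and 9.91 in replicates 1 to 4 labelled WT. Replicates 1 and 3 labelled KO were the lowest libraries and replicate 2 labelled KO was among the highest, so the groups overlapped. Its log2 fold change was -0.19 (SE 0.18, 95% interval -0.59 to 0.21, limma adjusted p = 0.757). Macrophage markers, 5 genes summed, stood at 45.1, 53.0, 34.1 and 55.2 FPKM in replicates 1 to 4 labelled KO, against 44.3, 40.3, 53.3 and 49.7 FPKM in replicates 1 to 4 labelled WT. Replicate 3 labelled KO was lowest for them, as for Ckb, but also for the fibroblast, smooth muscle and pericyte, and satellite cell sums. The endothelial, adipocyte, erythroid and Schwann cell sums were lowest in other libraries. The part of any of these cell types in the Ckb values was not tested. A transcript of the gene Gm12892 is 96.8% identical to Ckb over 1149 bases and is listed at 0 in all 8 libraries, so the split of reads between them is uncertain. The other mitochondrial form, Ckmt1, was listed at 0 in 7 libraries and at 0.0122 FPKM in replicate 4 labelled WT.

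The mix of the 3 creatine kinases was also taken as a share within each library, which does not depend on how libraries are scaled to each other. Ckmt2 made up 6.47, 19.0, 12.3 and 14.9% of the summed creatine kinase FPKM in replicates 1 to 4 labelled KO, against 7.82, 5.20, 7.28 and 6.71% in replicates 1 to 4 labelled WT. The mean share was 13.2 ± 5.25% in the libraries labelled KO and 6.75 ± 1.13% in those labelled WT (SD, n = 4 each), 6.44 percentage points apart (exact permutation p = 0.114, two-sided over 70 assignments; adjusted p = 0.343 over 3 shares). Without replicate 1 labelled KO the difference was 8.67 points, with an exact permutation p of 0.0286, the smallest possible, and an adjusted p of 0.0857. The library left out is the one labelled KO with the low share, so the separation of the remaining libraries follows from leaving it out. The smallest p that 4 against 4 libraries allow is 0.0286, which is 0.0857 after adjustment when a single share reaches it, so no single share could pass here. The summed FPKM of the 3 kinases stayed within 11411 to 13000.3 in the libraries labelled KO and 11387 to 13422 in those labelled WT. Ckb made up 0.0743 ± 0.0236% of it in the libraries labelled KO and 0.0827 ± 0.0155% in those labelled WT (SD, n = 4 each; exact permutation p = 0.543, adjusted p = 0.543).

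**Figure D2:**
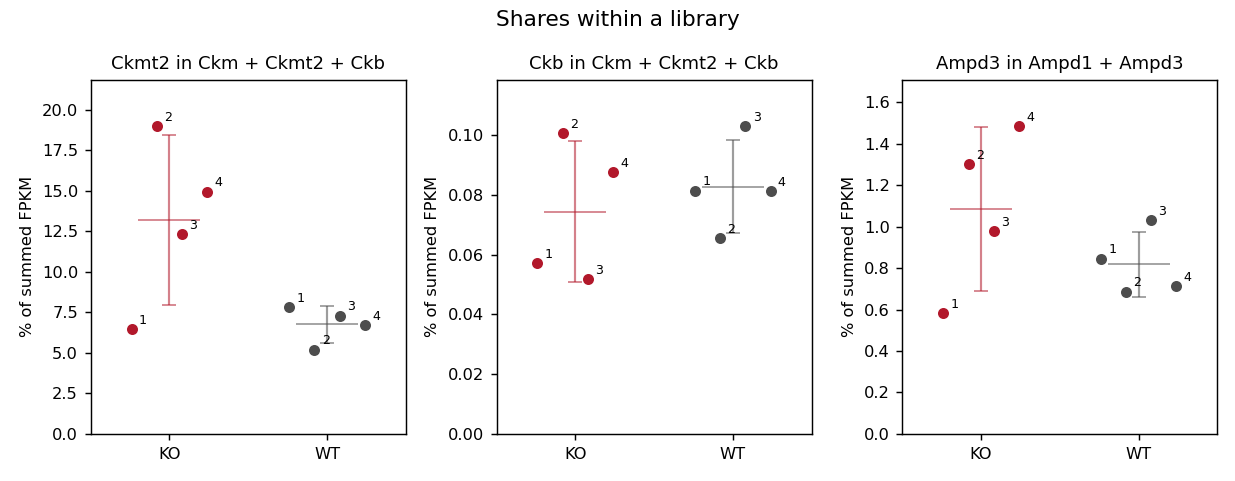
Shares within each library of Ckmt2 and of Ckb in the summed FPKM of Ckm, Ckmt2 and Ckb, and of Ampd3 in that of Ampd1 and Ampd3 (y axes, percent, from 0). Libraries labelled KO are red and those labelled WT grey, with replicate numbers, group means and SD (n = 4). For Ckmt2 the libraries labelled KO run from 6.47 to 19.0% and those labelled WT from 5.20 to 7.82%; for the other 2 shares the groups overlap as well.

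None of the genes that supply creatine passed the test. Gatm, the amidinotransferase that makes guanidinoacetate from arginine and glycine (chromosome 2, 122594467 to 122611303), stood at 3.54, 2.78, 3.72 and 5.36 FPKM in replicates 1 to 4 labelled KO, against 4.34, 3.37, 3.83 and 3.86 FPKM in replicates 1 to 4 labelled WT. Replicates 2 and 4 labelled KO were the lowest and the highest of all 8 libraries, and the log2 fold change was -0.03 (95% interval -0.41 to 0.36, limma adjusted p = 0.969). Gamt, the methyltransferase that completes creatine (chromosome 10, 80258151 to 80261012), stood at 20.8, 19.2, 17.3 and 18.5 FPKM in replicates 1 to 4 labelled KO, against 19.6, 23.4, 18.9 and 18.6 FPKM in replicates 1 to 4 labelled WT. These ranges overlapped, with a log2 fold change of -0.08 (95% interval -0.30 to 0.13, limma adjusted p = 0.803). Slc6a8, the creatine transporter of the cell membrane (chromosome X, 73673150 to 73682502), stood at 48.2, 57.1, 55.7 and 58.5 FPKM in replicates 1 to 4 labelled KO, against 66.0, 44.3, 67.4 and 43.5 FPKM in replicates 1 to 4 labelled WT. All 4 libraries labelled KO fell between the low pair and the high pair of those labelled WT, and the log2 fold change was 0.02 (95% interval -0.35 to 0.38, limma adjusted p = 0.983).

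Ak1, the cytosolic adenylate kinase of muscle (chromosome 2, 32621758 to 32635058), was close in both labels. Its FPKM was 901, 749, 810.3 and 731 in replicates 1 to 4 labelled KO, against 832, 833, 708 and 782 in replicates 1 to 4 labelled WT. The highest library was replicate 1 labelled KO, and the others of that label lay within the range of those labelled WT. The log2 fold change of Ak1 was 0.01 (SE 0.09, 95% interval -0.20 to 0.23, limma adjusted p = 0.971).

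Ampd1, the AMP deaminase of skeletal muscle (ENSMUSG00000070385, chromosome 3, 103074014 to 103099720), was lower in 3 of the 4 libraries labelled KO without passing the test. It stood at 622, 423, 491 and 433 FPKM in replicates 1 to 4 labelled KO, against 659, 599.6, 520.2 and 599.1 FPKM in replicates 1 to 4 labelled WT. Replicates 2, 3 and 4 labelled KO lay below every library labelled WT, while replicate 1 labelled KO was the highest but for 1 of them. The means were 492 ± 91.6 FPKM in the libraries labelled KO and 595 ± 57.1 FPKM in those labelled WT (SD, n = 4 each). The log2 fold change of Ampd1 was -0.28 (SE 0.13, 95% interval -0.59 to 0.02, limma adjusted p = 0.508, exact permutation p = 0.114), and without replicate 1 labelled KO it was -0.40 (95% interval -0.63 to -0.17, adjusted p = 0.126). The library left out is the one labelled KO in which Ampd1 is high, so the larger change is no independent support.

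Ampd3, the AMP deaminase known from red blood cells and induced in wasting muscle (chromosome 7, 110768206 to 110812405), was near 5 FPKM in both labels. Its FPKM was 3.64, 5.57, 4.85 and 6.54 in replicates 1 to 4 labelled KO, against 5.62, 4.15, 5.42 and 4.30 in replicates 1 to 4 labelled WT. The lowest and the highest library both carried the KO label, and the log2 fold change was 0.06 (SE 0.17, 95% interval -0.33 to 0.45, limma adjusted p = 0.936). Exon bases shared with Rnf141 on the opposite strand, 195 of 5627, leave a small part of its reads uncertain. Ampd2, another AMP deaminase, averaged 3.02 FPKM in the libraries labelled KO and 3.15 FPKM in those labelled WT. It is not part of the sum used for the share. Of the summed FPKM of Ampd1 and Ampd3, Ampd3 made up 0.582, 1.30, 0.979 and 1.49% in replicates 1 to 4 labelled KO, against 0.845, 0.687, 1.03 and 0.712% in replicates 1 to 4 labelled WT. The mean share was 1.09 ± 0.396% in the libraries labelled KO and 0.819 ± 0.157% in those labelled WT (SD, n = 4 each; exact permutation p = 0.257, adjusted p = 0.386 over 3 shares). The difference of 0.269 percentage points became 0.437 without replicate 1 labelled KO (exact permutation p = 0.0857, adjusted p = 0.129) and 0.135 without replicate 4 labelled KO. Among the libraries labelled KO, these 2 have the lowest and the highest share, so both shifts follow from leaving them out.

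As a group, 0 of the 9 genes passed with all 8 libraries, where 0.0505% of all genes tested were called, all of them higher in the libraries labelled KO (0.0% were called lower). At an unadjusted limma p under 0.05 the count was 1 of 9, Ckmt2, where 10.3% of all genes tested passed. Of their log2 fold changes 4 of 9 were above 0, with a median of -0.03, and 6464 of those of the 11878 genes tested, with a median of 0.02. Without replicate 1 labelled KO, 1 of 9 was called, where 1.05% of all genes were: it was higher, as were 0.951% of all genes, and 0 of 9 were lower, as were 0.101%. In that setting Ckmt2 was 1 of the 9.35% of genes whose lowest library labelled KO lay above the highest labelled WT, and Ampd1 1 of the 4.51% with the opposite order. Both orders follow from leaving out the library labelled KO in which Ckmt2 is low and Ampd1 high. None of the 9 genes lies on chromosome 14, which carries Mss51.

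**Figure D3:**
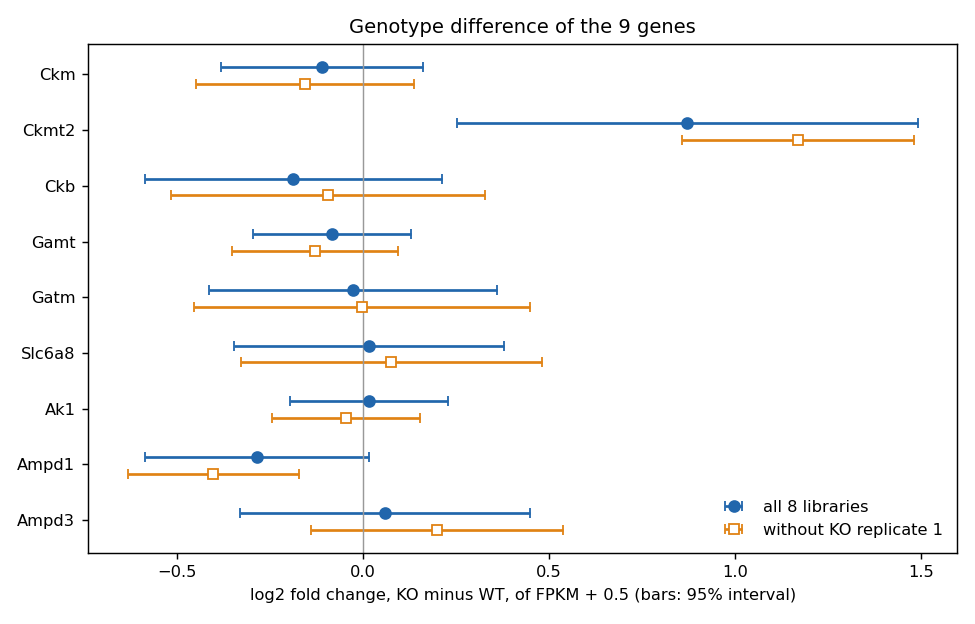
Log2 fold change, KO minus WT, of FPKM + 0.5 for the 9 genes (x axis), with 95% intervals from limma, for all 8 libraries (filled circles) and without replicate 1 labelled KO (open squares). Ckmt2 stands at 0.87 and 1.17, with intervals above 0 in both settings. Ampd1 stands at -0.28 with all 8 libraries, where its interval includes 0, and at -0.40 without replicate 1 labelled KO, where it does not. That library is the one labelled KO in which Ckmt2 is low and Ampd1 high, so the second setting is no independent support. The intervals of the other 7 genes include 0 in both settings. Intervals are per gene and not adjusted for the number of genes tested.

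Some oxidative fibre genes were high in the libraries with high Ckmt2. Mb, which encodes the oxygen store myoglobin, stood at 1838, 4704, 3645 and 4010.3 FPKM in replicates 1 to 4 labelled KO, against 1624, 1695, 1686 and 1937 FPKM in replicates 1 to 4 labelled WT. Myh2, the myosin of fast oxidative fibres, stood at 125, 494, 447 and 391 FPKM in replicates 1 to 4 labelled KO, against 127, 96.6, 141 and 156 FPKM in replicates 1 to 4 labelled WT. Both repeated the split seen for Ckmt2, with replicate 1 labelled KO among the libraries labelled WT. Of the 10 slow or oxidative fibre markers, 4 (Mb, Myh2, Myl2 and Myl3) had replicates 2 to 4 labelled KO above every library labelled WT. With replicate 1 labelled KO set aside in this way, 9.35% of all genes tested had that order. The other 6 (Tnnt1, Tnni1, Tnnc1, Myh7, Atp2a2 and Tpm3) had at least 1 of these replicates inside the range of the libraries labelled WT. Among the 10, 9 had a log2 fold change above 0 (median 0.31), and 0 passed with all 8 libraries. Myh2, Myl2 and Mb were among the 0.951% of all genes tested that were called higher without replicate 1 labelled KO. That library is also the one labelled KO in which these 3 genes are low, so these calls are no independent support either. The slow troponins Tnnt1, Tnni1 and Tnnc1 had smaller log2 fold changes of 0.35, 0.27 and 0.17, and Myh7, joined with Myh6, had -0.09.

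Fast fibre genes are given beside Ampd1 and Ckm. The summed FPKM of the 4 fast markers above 0 in every library (Actn3, Mybpc2, Pvalb and Mylpf) was 32052, 20785, 24649.9 and 19354 in replicates 1 to 4 labelled KO, against 25263, 32901, 24556 and 28560.3 in replicates 1 to 4 labelled WT. Replicates 2 and 4 labelled KO had the lowest sums, as they had the lowest Ckm. Mybpc2, the fast myosin-binding protein C, had a log2 fold change of -0.46 with groups that did not overlap, but did not pass (limma adjusted p = 0.347), where 1.61% of all genes tested were lower without overlap. In whole muscle, fewer fibres of a type and less RNA per fibre cannot be told apart, and the part of fibre makeup in the values of Ckmt2 and Ampd1 was not tested.

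**Figure D4:**
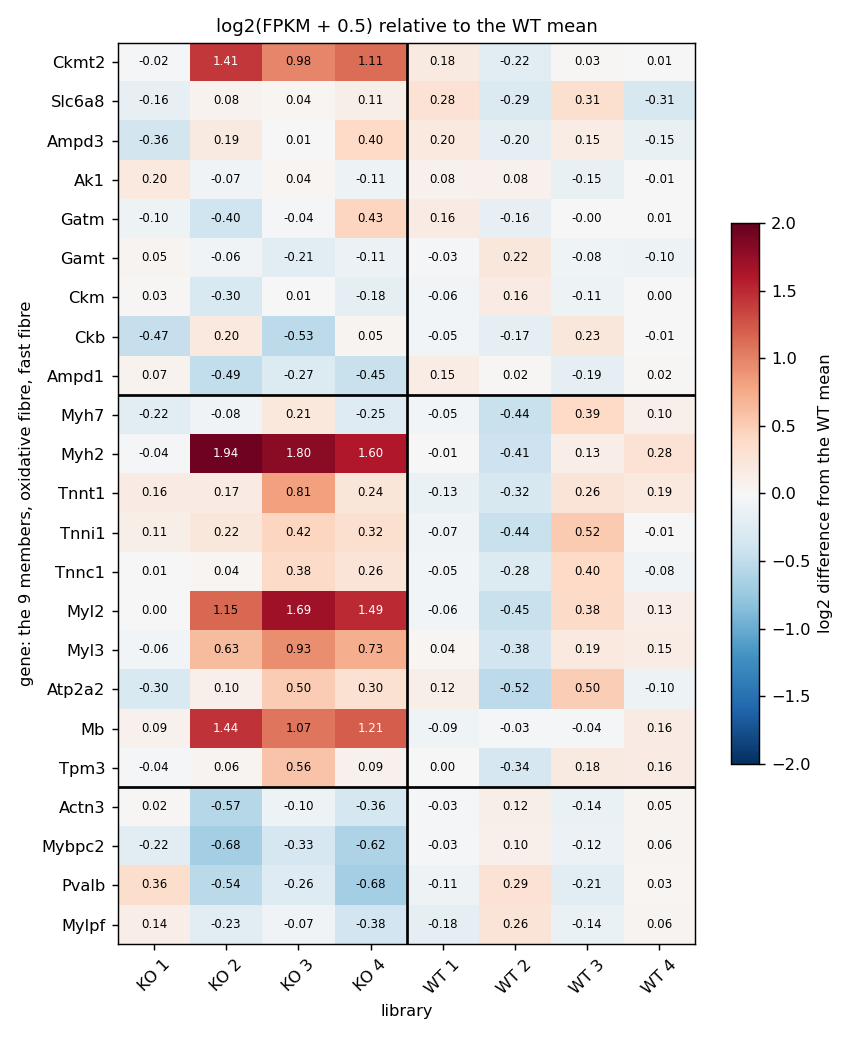
Log2(FPKM + 0.5) minus the mean of the libraries labelled WT, for each library (columns) and gene (rows), in 3 blocks: the 9 members, 10 slow or oxidative fibre markers (the row Myh7 is its joint entry with Myh6) and 4 fast fibre markers above 0 in every library. Replicates 2 to 4 labelled KO show Ckmt2 at 0.98 to 1.41, beside Mb at 1.07 to 1.44, while replicate 1 labelled KO is at -0.02 for Ckmt2 and 0.09 for Mb.

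Markers of other cell types were summed in the same way. Endothelial markers, 6 genes summed, stood at 63.2, 122, 78.4 and 108 FPKM in replicates 1 to 4 labelled KO, against 75.1, 70.3, 94.6 and 78.9 FPKM in replicates 1 to 4 labelled WT, and 0 of 6 passed. Of these 6 genes, 5 had a log2 fold change above 0 (median 0.15). Erythroid markers, 5 genes of haemoglobin and haem synthesis, ran from 652 to 3171 FPKM in the libraries labelled KO, with replicate 1 the highest. They ran from 509 to 1334 FPKM in those labelled WT, with 0 of 5 past the test. All 5 had a log2 fold change above 0 (median 0.91, and 0.54 without replicate 1 labelled KO). By library, the erythroid sums were 3171, 1598, 1529 and 652 FPKM in replicates 1 to 4 labelled KO. In replicates 1 to 4 labelled WT they were 509, 576, 1334 and 1107 FPKM. Any relation of these sums to Ampd3 was not tested. Adipocyte markers ran from 259 to 407 FPKM in the libraries labelled KO and from 294 to 398 FPKM in those labelled WT, most of it from Cfd. Of the 5 adipocyte markers, 1 had a log2 fold change above 0 (median -0.51) and 0 passed with all 8 libraries. Lep, the hormone leptin, passed as lower without replicate 1 labelled KO (log2 fold change -2.05, limma adjusted p = 0.0105), the library labelled KO in which it is high. Sums of fibroblast markers (553 to 824 FPKM labelled KO, 729 to 800.04 labelled WT), smooth muscle and pericyte markers (124 to 179.9 FPKM labelled KO, 149 to 186 labelled WT), Schwann cell markers (74.6 to 99.7 FPKM labelled KO, 72.0 to 92.1 labelled WT) and satellite cell markers (7.17 to 9.73 FPKM labelled KO, 8.47 to 11.7 labelled WT) overlapped between the labels. Of the fibroblast genes 0 of 5 tested had a log2 fold change above 0 (median -0.16), as had 0 of 5 smooth muscle and pericyte genes (-0.14). For Schwann cell genes it was 3 of 5 (0.04) and for satellite cell genes 0 of 2 (-0.08). Over all genes tested 6464 of 11878 were above 0 (median 0.02). No marker of these lists was at 0 in any library, and their part in the results was not tested.

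Partner genes of the phosphotransfer system showed 0 calls in 11 tested (5 above 0, median log2 fold change -0.07). Slc25a3, the mitochondrial phosphate carrier, stood at 681, 1033, 905 and 926 FPKM in replicates 1 to 4 labelled KO, against 703, 677, 731 and 696 FPKM in replicates 1 to 4 labelled WT (log2 fold change 0.32, limma adjusted p = 0.431). It showed the same split of the libraries labelled KO as Ckmt2 and passed without replicate 1 (0.44, limma adjusted p = 0.0466). In that setting 0.951% of all genes tested were called higher. The library left out is the one labelled KO in which Slc25a3 is low, so this call is no independent support. Vdac2, a pore of the outer mitochondrial membrane, averaged 207 ± 7.45 FPKM in the libraries labelled KO and 186 ± 5.47 FPKM in those labelled WT (SD, n = 4 each; log2 fold change 0.15, limma adjusted p = 0.431). Gapdh, a glycolytic enzyme, had a log2 fold change of -0.20 (limma adjusted p = 0.426). Slc25a4, the ADP/ATP carrier of muscle mitochondria, singled out after its values were seen, stood at 2270.4, 2399.6, 2502 and 2349 FPKM in replicates 1 to 4 labelled KO, against 1981, 2130.4, 2064 and 2176 FPKM in replicates 1 to 4 labelled WT (log2 fold change 0.19, limma adjusted p = 0.446). These 3 of the 11 genes did not pass, although their groups did not overlap, as was so for 5.5% of all genes tested.

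Other adenylate and nucleoside diphosphate kinases, which pass phosphates between nucleotides, also gave 0 calls in 9 tested (6 above 0, median log2 fold change 0.11). Those with the smallest p were Nme4 of mitochondria (0.47, limma adjusted p = 0.489), Nme3, joined with Mrps34 (0.31, adjusted p = 0.531), and Nme1, joined with Nme2 and Gm20390 (0.21, adjusted p = 0.534). Ak3, a mitochondrial kinase of the Ak1 family, stood lower than Ak1 itself, at 38.0 ± 2.58 FPKM in the libraries labelled KO and 38.1 ± 3.10 FPKM in those labelled WT (SD, n = 4 each).

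Among genes of the purine nucleotide cycle, AMP breakdown and salvage, 0 of 15 passed (8 above 0, median log2 fold change 0.01). Adk, adenosine kinase, which returns adenosine to AMP, came nearest: it stood at 100.3, 98.9, 103 and 107 FPKM in replicates 1 to 4 labelled KO, against 79.6, 84.0, 78.3 and 86.0 FPKM in replicates 1 to 4 labelled WT. All 4 libraries labelled KO, replicate 1 included, were above all 4 labelled WT (log2 fold change 0.32, SE 0.06, limma adjusted p = 0.279), and a gap of this direction was found in 3.89% of all genes tested. Adk lies on chromosome 14 at 21052574 to 21448569, 0.556 Mb from Mss51. Adssl1, the muscle adenylosuccinate synthase that acts after Ampd1 in the cycle, stood at 672, 456, 528 and 464 FPKM in replicates 1 to 4 labelled KO, against 589, 663, 542 and 626 FPKM in replicates 1 to 4 labelled WT. It had the same high and low libraries labelled KO as Ampd1, with a log2 fold change of -0.21 (limma adjusted p = 0.636). Nt5c1a, a nucleotidase of AMP, had -0.28 (adjusted p = 0.579).

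Genes that supply arginine, glycine and methyl groups for creatine synthesis gave 0 calls in 12 tested (7 above 0, median log2 fold change 0.08). Ahcy, which clears the by-product of methylation, averaged 8.01 ± 0.705 FPKM in the libraries labelled KO and 9.93 ± 1.14 FPKM in those labelled WT (SD, n = 4 each; log2 fold change -0.29, limma adjusted p = 0.394). Slc7a2, a carrier of arginine, had -0.26 (adjusted p = 0.454), and Asl, which forms arginine, had 0.37 (adjusted p = 0.440). None of these lists was chosen apart from earlier results of these data, and the median over all genes tested was 0.02.

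Profiles over the 8 libraries were compared by the root mean square difference of log2(FPKM + 0.5), each gene centred on its own mean. The genes nearest to Ckmt2 were Slc25a13, a mitochondrial aspartate-glutamate carrier, at 0.14 and Twf2, an actin-binding protein, at 0.14, where the median over all genes tested was 0.60 and the profile of Ckmt2 itself had a root mean square of 0.59. Slc25a13 was low, at 0.771, 2.63, 1.65 and 1.88 FPKM in replicates 1 to 4 labelled KO, against 1.01, 0.360, 0.543 and 0.615 FPKM in replicates 1 to 4 labelled WT. It passed the filter of a mean of 1 FPKM only through the libraries labelled KO in which it is high. Those nearest to Ampd1 were Phkg1 at 0.04 and Phkb at 0.06, which encode subunits of phosphorylase kinase (median over all genes 0.31). Phkg1 stood at 296, 204, 229 and 201 FPKM in replicates 1 to 4 labelled KO, against 293, 273, 238 and 275 FPKM in replicates 1 to 4 labelled WT. Dcaf8 (0.05) was among the nearest to Ckm, and nearest to Ak1 were Klc2 (0.03) and Phyhipl (0.04). For Ckb they were Gm20412 (0.07) and Tyrobp (0.08), an adaptor protein of myeloid cells, and for Gamt Gpr180 (0.04) and Shisa4 (0.06). For Gatm they were Lmod1 and Shisa3 (0.09 each), for Slc6a8 Grb10 (0.07) and Pcgf2 (0.08), and for Ampd3 the joint entry of Cd300a and Gprc5c and the gene Mospd2 (0.05 each). These values describe the same 8 libraries for every gene, and some gene is bound to lie near any profile among 11878.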

How the data were processed

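RNA of quadriceps muscle was sequenced as paired reads of 150 bases, with 50000000 read pairs stated in the labels' protocols, after oligo(dT) enrichment and removal of ribosomal RNA. Per the file headers, the deposited tables, 1 for each library, hold FPKM values of genes. The submitters' processing notes name mm10 as build and, without their roles, the tools Cufflinks 2.2.1, TopHat2 2.1.1, Bowtie2 2.2.6 and FastQC; annotation, filters and strand setting are not given in the sources used here. The files hold no counts. Ratios of FPKM below 0.5 between libraries showed no shared step of 1 fragment (at most 0.776% of genes in a bin of 0.005 log2 units), so the depth of each library is unknown and no counting interval is given.

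Entries without a gene name (2379 of 46036, carrying 65.8% to 93.2% of a library's summed FPKM) were left out, and of 344 names on several entries the one with the highest mean was used. Every gene whose mean reached 1 FPKM was tested as log2(FPKM + 0.5), with no further scaling, by limma 3.58.1 in R 4.3.3 (genotype alone, mean trend, two-sided, Benjamini-Hochberg over 11878 genes, threshold 0.05). Shares were compared by exact permutation. The fit was tested on simulated data with independent normal noise of each gene's own spread. It called 47.8% of simulated 1.5-fold changes, 86.6% of 2-fold and 97% of 4-fold changes. There were 10 false calls among the unchanged genes, and smaller changes can therefore be missed. Genes were placed with GENCODE M21, and transcripts were compared with blastn 2.17.0 over at least 150 bases. Named were Mss51, the 9 genes, the 3 genes of smallest p in each of the 4 pathway lists, fibre and other list genes singled out after their values were seen (Ak3 among them), and the 2 nearest profiles of each member, of which 1 is not reported here. The members, lists and tests were chosen with earlier results of these data known. Nothing in the labels ties mice to litters or batches, and 1 mouse gave 1 library, so p-values rest on the spread between mice.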

Additional observations from a re-analysis of the deposited data

Results flagged for a closer look

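Mss51 stood far above the rest of its label in replicate 1 labelled KO, at 339.6 FPKM, where the other 3 libraries labelled KO held 201 to 216 FPKM. Lep, the adipocyte hormone leptin, stood apart in the same library, at 2.79 FPKM, where the others labelled KO held 0.324 to 0.577 FPKM. In each case the gap to the nearest library, divided by the range of the 4, was above Dixon's 95% critical value for 4 values (0.893 for Mss51 and 0.897 for Lep). Among independent groups of normally distributed values, chance alone gives about 1 such case in 20. The 112 groups examined come from the same 8 libraries, so the 5.6 cases expected on that basis are only a rough guide. The cases found were 2. None of the 9 genes and none of the 3 shares stood apart in this way in either label.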

How the results depend on the processing

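No member passed the test under any alternative except Ckmt2 without replicate 1 labelled KO, where the number of genes called higher was 1 instead of 0; the number called lower was 0 throughout. Leaving out each library in turn gave 0 to 1 higher calls. The log2 fold change of Ckmt2 kept its direction in all 19 alternatives (0.66 to 1.17), as did those of Ckm (-0.33 to -0.0198), Ckb (-0.39 to -0.0738), Gamt (-0.29 to -0.0108) and Ampd1 (-0.50 to -0.22). Changes near 0 turned sign. Slc6a8 stood at -0.20 after rescaling to an equal sum over named genes, at -0.0106 with the median ratio, at -0.0232 with quantile normalization and at -0.0887 to 0.12 with each library left out. Ak1 stood at -0.20, -0.0118, -0.15 and -0.0455 to 0.0554 in those settings. Ampd3 stood at -0.14 after the first rescaling and at -0.0567 to 0.20 with each library left out, and Gatm at -0.18 to 0.10 with each left out. Rescaling to an equal sum moved the median of all genes to -0.18, relative to which Slc6a8, Ak1 and Ampd3 stand near 0. The lowest values given above for Ckmt2, Ckm, Ckb, Gamt and Ampd1 come from this setting too and carry the same shift. That sum holds Atg7 at 921731 FPKM in replicate 4 labelled KO and Gm22953 at 469610.0 FPKM in replicate 3 labelled WT, each listed at 0 elsewhere. All 3 shares kept their direction, with adjusted p above 0.05 in each alternative. The smallest exact permutation p, 0.0286, adjusts to 0.0857 when a single share reaches it, so no single share could have passed. The values showed no pairing by replicate number (correlations of deviations -0.08 to 0.01, with 0 of 8 libraries closest to their own number). Such correlations cannot settle whether mice were paired, and the labels do not say. With a replicate block 0 genes were called over all genes instead of 6, and Ckmt2 had a limma adjusted p of 0.582. Over all genes, 119 were called after rescaling to an equal sum (63 higher and 56 lower) and 125 without replicate 1 labelled KO (113 higher and 12 lower), and the cause was not tested. Gatm has no value at a mean of at least 5 FPKM. Depth per library is unknown, so the precision of the low members (Gatm, Ampd3 and Ckb) rests on the spread between mice, without a counting interval. In the limma fit this spread is drawn toward a trend over all genes tested.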
